A study of Danio rerio with 58 samples.

Results

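The cytosolic ribosomal protein genes encode the proteins of the large and small subunits of the cytoplasmic ribosome. Members were taken by gene symbol, as every gene whose name starts with rpl or rps followed by a number, together with rplp0, rplp1, rplp2 and rpsa, and without the rps6k kinases. This gave 85 of the 32057 genes in the tables: 44 of the large subunit, 34 of the small subunit, 6 paralogues or like genes (rpl22l1, rpl7l1, rps27l, rps11l, rps26l and rplp2l) and 1 gene that is no ribosomal protein, rps19bp1, which encodes a binding partner of Rps19. The chosen symbols carried very unequal counts. Over all 58 libraries, rpl26 received 215 counts, rpl9 313 and rps11l 537, and 76 members had a mean level of at least 200 CPM (gene counts scaled to library size). Between 82 and 84 members passed the filter on low counts in the comparisons of exposed fish with controls.

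The ribosome is assembled in the nucleolus from ribosomal RNAs and close to 1 copy of each ribosomal protein, so that cells make these proteins in balanced amounts. Their mRNAs are among the most abundant in dividing and growing cells. In vertebrates, free Rpl5 and Rpl11, which form a particle with the 5S ribosomal RNA, bind the p53 inhibitor Mdm2 when assembly is disturbed, and loss of single members such as RPS19 causes Diamond-Blackfan anaemia in humans. Maternal ribosomes serve the early zebrafish embryo before its own ribosomal genes take over.

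mRNA was measured by stranded sequencing in pools of entire wild-type zebrafish of the AB strain at 24, 48 and 96 hours post fertilisation (hpf). Exposed fish received gamma radiation from an external caesium source without interruption from 1 hpf, at 0.5, 5 or 50 mGy/h, and controls were kept unexposed. The labels name 3 irradiation batches, I10, I17 and I32. The 5 and 50 mGy/h exposures share their controls in batch I17, with 3 controls at each stage. Exposed pools at 5 and 50 mGy/h numbered 3 and 3 at 24 hpf, then 2 and 3 at 48 hpf, then 3 and 2 in the 96 hpf larvae. The 0.5 mGy/h exposure has its own controls, in batch I32 at 24 hpf (3 exposed pools, 5 controls) and in batch I10 at 48 hpf (3 and 4) and 96 hpf (3 and 3). These are the 46 libraries in use here, after leaving out 7 that were set aside as outlying by their clustering and 5 libraries of batch I10 at 24 hpf. The labels number the pools but name no separate spawning for each, so the p-values measure only the spread between these pools, which may be technical. Genes of muscle (actc1b), epidermis (krt4), neurons (elavl3) and red blood cells (hbae1.1) were counted in every library, as whole animals should show, and the liver gene fabp10a had libraries at 0.

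Depth ran from 28278920 to 49971607 gene counts per library, with a median of 35489525. Reads mapping to several places took 14.9% to 25.5% of the reads and are not in the counts, which bears on members with near-identical copies. The highest were 5 mGy/h pools, 48 hpf replicate 5 at 21.8% and 96 hpf replicate 9 at 25.5%, and the next highest library had 17.5%. Values below are CPM after TMM scaling over the 46 libraries. A log2 fold change is given with its standard error, and its adjusted p comes from the edgeR quasi-likelihood test with Benjamini-Hochberg adjustment over all genes tested. A gene is said to rise or fall at an adjusted p below 0.05, and DEG is kept for the study's stricter rule of a fold change of at least 1.5 at an adjusted p below 0.01. In whole animals, fewer cells of a type and less RNA per cell cannot be told apart.

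Some libraries stood apart from the rest within the ribosomal genes themselves. The ratio of rps12 to rps15 counts lay between 0.202 and 0.501 in all 27 libraries of batch I17, between 0.334 and 0.432 in the 5 of batch I10 at 24 hpf, and between 0.244 and 0.306 in 8 libraries of batch I10 at 48 and 96 hpf. In the 12 libraries of batch I32 it was 1.73 to 3.40, and in 6 controls of batch I10 it was 1.84 to 2.70. Those 6 controls were replicates 6, 7 and 8 at 48 hpf and 10, 11 and 12 at 96 hpf, of which 5 are among the 46. They also had 4.39% to 5.69% of reads unmapped against 2.31% to 2.85% in the other 8. In the 6, rps12 had 758 to 1067 CPM and rps15 322 to 434 CPM before TMM scaling, against 216 to 312 and 730 to 1157 in the other 8. Counted without regard to strand, rps12 overlapped between those sets, at 99.1 to 149 and 89.2 to 148 CPM, whereas its ratio to rps15 stayed apart, at 0.239 to 0.371 in the 6 and 0.0978 to 0.143 in the other 8. All exposed pools of batch I10 at 48 and 96 hpf are on the other side of this split, so at 0.5 mGy/h the split and the exposure cannot be told apart for 3 of 4 controls at 48 hpf and 2 of 3 at 96 hpf. For 0.5 mGy/h in batch I10, the members' medians and the 48 hpf value of rps27l are given below with and without these controls. Most other values there, among them the counts of calls, are given only with them.

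**Figure D1:**
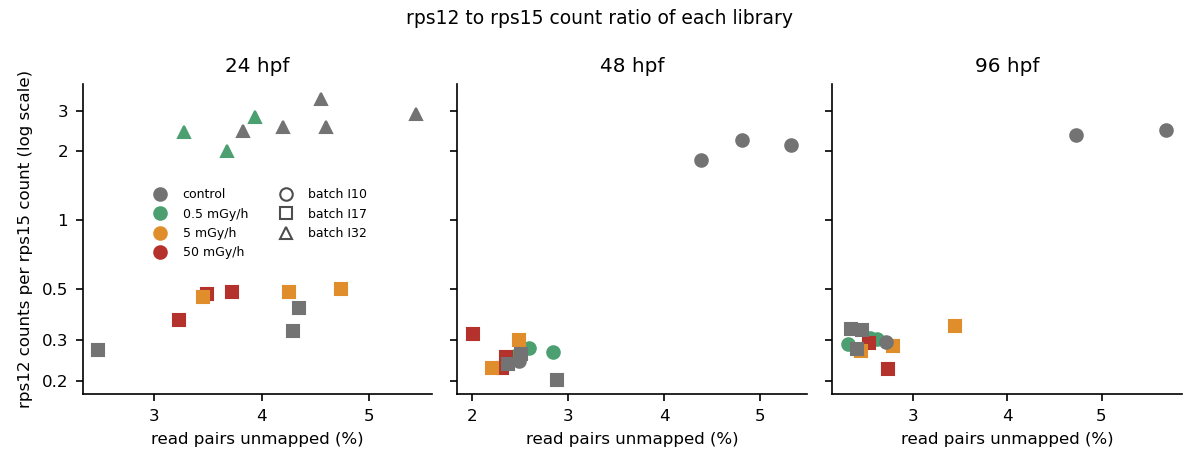
Ratio of rps12 to rps15 counts (log axis) against the percentage of read pairs unmapped, for each of the 46 libraries in use. There is 1 panel per stage, with colours and symbols for exposure and batch. Every drawn library of batch I32 and 5 controls of batch I10 lie above 1.73, and all others at or below 0.501.

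Together the 85 genes took between 10.1% and 26.9% of all gene counts in a library. At 24 hpf in batch I17 their share was 15.6%, 20.3% and 17.6% in the controls, 25.04%, 25.4% and 26.9% at 5 mGy/h and 25.1%, 22.7% and 26.7% at 50 mGy/h. No exposed pool overlapped a control at that stage, and the means were 17.8% ± 2.36 (SD, n = 3), 25.8% ± 1.005 (SD, n = 3) and 24.8% ± 2.03 (SD, n = 3). At 48 hpf the controls had 15.7%, 12.8% and 13.5%, the 5 mGy/h pools 18.9% and 16.4%, and the 50 mGy/h pools 15.9%, 14.8% and 19.4%, so that the 50 mGy/h pools overlapped the controls. At 96 hpf the order was turned: the controls had 14.7%, 14.2% and 12.7%, the 5 mGy/h pools 12.3%, 10.3% and 12.1%, and the 50 mGy/h pools 10.1% and 11.02%, all below every control. Of the 2 pools that had been set aside in this batch, the 48 hpf pool at 5 mGy/h had 10.5%, below every control of its stage and against the other 5 mGy/h pools. The 96 hpf pool at 50 mGy/h had 12.6%, just below the lowest control. This pool was identified from the study's clustering figure, where its name is ambiguous. The share of reads inside no gene was 5.51% to 6.83% in the 24 hpf controls and 3.96% to 5.11% in the exposed pools, and at 96 hpf 4.50% to 5.38% against 4.98% to 7.46%. It ran opposite to the members' share at both stages, with overlap between the groups at 96 hpf, and its part in the result was not tested.

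**Figure D2:**
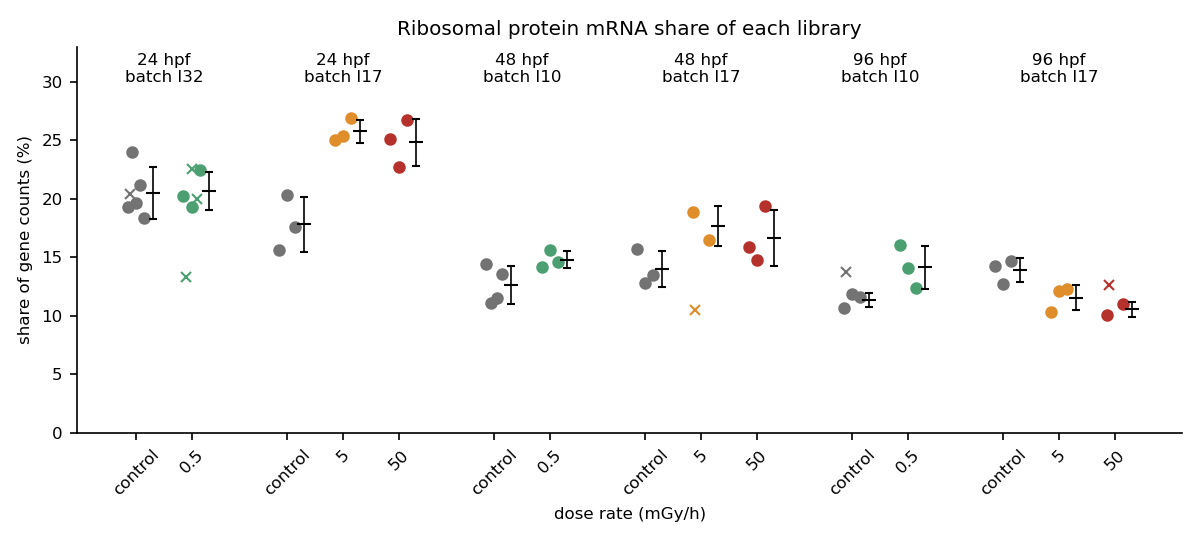
Share of gene counts taken by the 85 members, in percent, for each library, by stage, batch and dose rate. Points are libraries, bars are mean ± SD of the libraries in use, and crosses are libraries set aside, as read from the study's clustering figure. In batch I17 the exposed pools sit above the controls at 24 hpf (means of 25.8% and 24.8% against 17.8%) and below them at 96 hpf (11.5% and 10.6% against 13.9%).

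At 24 hpf, nearly all ribosomal protein genes were higher at 5 and 50 mGy/h. At 5 mGy/h, 73 of 83 tested members rose and none fell, against 13.8% of all genes that rose and 11.1% that fell. The median log2 fold change was 1.06, and 82 of 83 members were positive. At 50 mGy/h, 75 of 83 rose and none fell, against 11.6% and 7.91% of all genes, with a median of 0.96. The groups did not overlap, with every exposed pool above every control, for 77 members at 5 mGy/h (23.3% of all genes) and 79 at 50 mGy/h (18.2%), and 1 and 0 members lay below (26.1% and 18.6%). By the DEG rule, 59 members rose at 5 mGy/h (6.68% of all genes) and 0 fell (3.21%), and 13 rose at 50 mGy/h (4.17%) and 0 fell (1.71%). Both dose rates are set against the same 3 controls, so the 72 members that rose in both are not 2 independent counts. Many members also shifted together from pool to pool, as their share in the controls did. Counts of members, at this and other stages, are therefore not counts of independent observations. The count at 50 mGy/h rested on single libraries: it was 6 without control replicate 4, 29 without control replicate 1 and 48 without 50 mGy/h replicate 4, with the median between 0.74 and 1.20. At 5 mGy/h leaving out any library gave 53 to 75.

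The members moved by much the same amount. Among the 76 structural members tested, the interquartile range of log2 fold changes was 0.91 to 1.20 at 5 mGy/h and 0.85 to 1.05 at 50 mGy/h. Large and small subunit genes rose alike, with 40 of 42 and 30 of 34 past the threshold at 5 mGy/h and medians of 1.09 and 1.06. The ratio of all large subunit counts to all small subunit counts was 1.259 ± 0.017 (SD, n = 3) in the controls, 1.256 ± 0.012 (SD, n = 3) at 5 mGy/h and 1.247 ± 0.003 (SD, n = 3) at 50 mGy/h, differences within the spread of the controls. The same ratio was 1.198, 1.198 and 1.206 at 48 hpf and 1.241, 1.267 and 1.255 at 96 hpf for controls, 5 and 50 mGy/h.

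**Figure D3:**
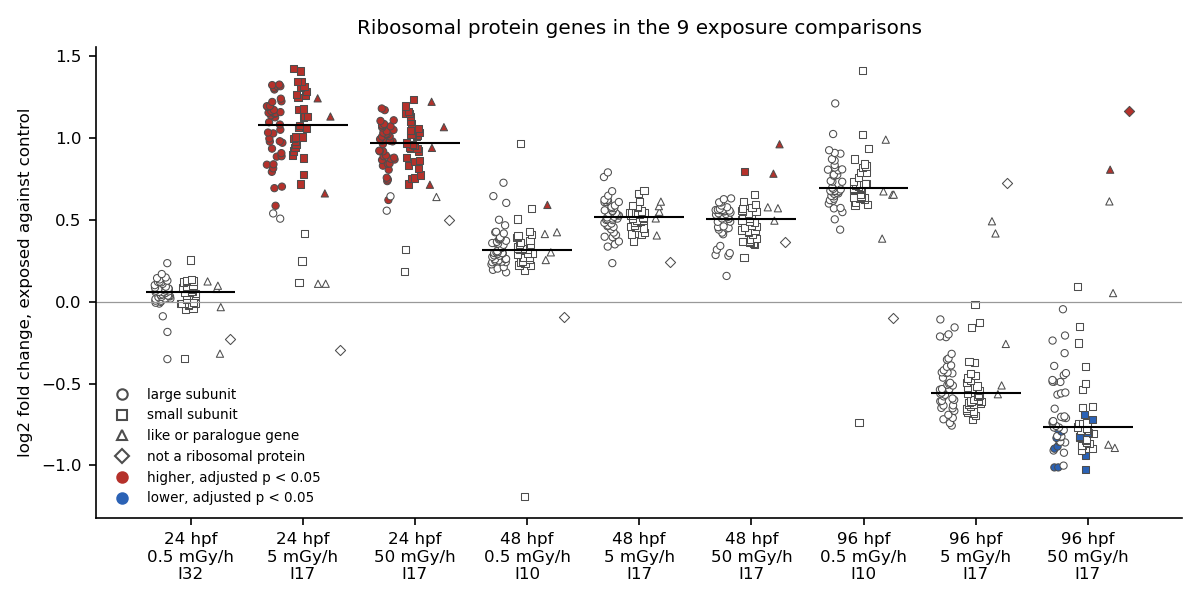
Log2 fold change of each tested member in the 9 comparisons of exposed fish with controls, 1 point per member, by class, with the black line at the median of the structural members. Members with almost no counts, such as rpl9, rps11l and rpl26, are not drawn. The medians run from 1.07 at 24 hpf and 5 mGy/h to -0.77 at 96 hpf and 50 mGy/h, and most members lie close to them.

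Largest at 24 hpf was rps12, a small subunit protein gene. Its levels in batch I17 were 248, 485 and 320 CPM in controls, 798, 973 and 1073 at 5 mGy/h and 722, 692 and 1054 at 50 mGy/h. No exposed pool reached down to a control, and the log2 fold changes were 1.43 ± 0.25 (edgeR adjusted p = 0.00204) and 1.23 ± 0.25 (edgeR adjusted p = 0.00494). For rps3, a small subunit protein at the mRNA entry site, the controls had 2237, 4462 and 3107 CPM, the 5 mGy/h pools 6936, 8979 and 10300, and the 50 mGy/h pools 6671, 5877 and 9852. Here too the groups were apart, at 1.41 ± 0.29 (edgeR adjusted p = 0.00456) and 1.20 ± 0.29 (edgeR adjusted p = 0.013). rps9 rose by 1.34 ± 0.28 at 5 mGy/h (edgeR adjusted p = 0.00422).

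The stalk proteins recruit the translation factors to the large subunit, with rplp0 as the base and rplp1 and rplp2 as its arms. The most abundant member by counts, rplp0, had 5916, 12300 and 8445 CPM in the 24 hpf controls, 17780, 22550 and 25560 at 5 mGy/h and 14690, 15740 and 23160 at 50 mGy/h. It rose by 1.30 ± 0.31 (edgeR adjusted p = 0.00894) and 1.01 ± 0.31 (edgeR adjusted p = 0.0337), although its controls themselves differed by more than its lowest exposed pool did from its highest control. The same held for rps12 and rps3 above and for rpl11 and rps19 below. rplp1 rose by 1.13 ± 0.27 and 0.99 ± 0.27 and rplp2 by 0.84 ± 0.20 and 0.74 ± 0.20 at 5 and 50 mGy/h.

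Rpl5 and Rpl11 bind the 5S ribosomal RNA, and zebrafish carry rpl5 and rpl5b in these tables. rpl11 had 1804, 3240 and 2298 CPM in controls, 4721, 5175 and 5205 at 5 mGy/h and 4826, 4085 and 5622 at 50 mGy/h. It rose by 1.03 ± 0.25 (edgeR adjusted p = 0.00843) and 0.99 ± 0.25 (edgeR adjusted p = 0.0134), with all exposed pools above all controls. rpl5b rose by 0.89 ± 0.20 and 0.98 ± 0.20 (edgeR adjusted p = 0.00711 and 0.00572). rpl5 had values of 0.51 ± 0.21 and 0.56 ± 0.21 that missed the threshold (edgeR adjusted p = 0.0884 and 0.0757).

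On the small subunit, rpsa, known in mammals also as a laminin receptor, had 4366, 8513 and 6275 CPM in controls and 12690, 15940 and 17470 at 5 mGy/h. It rose by 1.26 ± 0.29 at 5 mGy/h (edgeR adjusted p = 0.00732) and 1.02 ± 0.29 at 50 mGy/h (edgeR adjusted p = 0.0242). rps19 had 1437, 2523 and 1798 CPM in controls, 3679, 4530 and 4871 at 5 mGy/h and 3662, 3170 and 4801 at 50 mGy/h. Its groups did not overlap, and it rose by 1.18 ± 0.25 (edgeR adjusted p = 0.00517) and 1.02 ± 0.25 (edgeR adjusted p = 0.0133).

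Some abundant small subunit genes had smaller values than most at 24 hpf. rps7, needed in human cells for processing of the small subunit RNA, had 2041, 1969 and 1906 CPM in controls, 2037, 1889 and 2498 at 5 mGy/h and 2699, 1698 and 2242 at 50 mGy/h. The groups overlapped at both dose rates, at 0.12 ± 0.21 (edgeR adjusted p = 0.706) and 0.18 ± 0.21 (edgeR adjusted p = 0.569). rps18, with 1408, 1701 and 1559 CPM in controls and 1827, 1766 and 1960 at 5 mGy/h, had 0.25 ± 0.20 and 0.32 ± 0.20 and did not pass either test. For rps24, another gene of Diamond-Blackfan anaemia in humans, the values were 0.42 ± 0.23 at 5 mGy/h (edgeR adjusted p = 0.188) and 0.76 ± 0.23 at 50 mGy/h (edgeR adjusted p = 0.0323). In all 3 genes the controls differed less from each other than did those of rps12 or rplp0. Other members not past the threshold included rpl22l1, rpl34, rpl7l1, rps11l and rps19bp1 with rpl5 at 5 mGy/h, and rpl22l1, rpl7, rps11l and rps19bp1 with rpl5 at 50 mGy/h.

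At 0.5 mGy/h and 24 hpf, in batch I32, no member rose or fell by edgeR or by DESeq2, against 0.0908% and 0.759% of all genes. Of 84 tested members, 0 were higher and 3 lower at an unadjusted p below 0.05 (9.04% of all genes lower), and the median log2 fold change was 0.06. By the DEG rule 0 rose and 0 fell (0.00534% and 0.0641% of all genes). No member's groups were apart, against 4.28% of all genes above and 5.33% below. The members' share was 20.7% ± 1.61 (SD, n = 3) in exposed pools and 20.5% ± 2.21 (SD, n = 5) in controls. As many exposed pools of this batch had been set aside as were used. Those set aside had 13.3%, 22.6% and 20.0%, the first below every control in use (lowest 18.3%), and the control set aside had 20.4%. Shares of the batch I10 libraries at 24 hpf, which enter no comparison, are given near the end.

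At 48 hpf the members at 5 and 50 mGy/h lay above the controls by smaller amounts, and few passed the test. At 5 mGy/h the median was 0.52 with 81 of 83 positive, but none passed (0.656% and 0.954% of all genes rose and fell), 14 were higher at an unadjusted p below 0.05 (6.58% of all genes) and DESeq2 called 4 higher (2.25%). The median was 0.34 without 5 mGy/h replicate 5, and 0.19 when the pool set aside was put back. With the 2 exposed pools in use, 48 members lay wholly above the controls (18% of all genes) and 0 below (22.7%), and no member was a DEG (0.141% and 0.0151% of all genes higher and lower). At 50 mGy/h the median was 0.51 with 82 of 83 positive, 3 members rose and none fell (3.58% and 4.91% of all genes), and DESeq2 called 10 higher (5.87%). This median was 0.16 without 50 mGy/h replicate 8, and 0.38 to 0.67 without any other single library. Here 14 members lay wholly above the controls (12.5%) and 0 below (15.7%), and by the DEG rule 1 rose (0.757% of all genes) and 0 fell (0.768%). The 3 were rps27l, rps7 and rpl7l1. rps7 had 1476, 1220 and 1588 CPM in controls and 2374, 2384 and 2680 at 50 mGy/h, apart from each other, a rise of 0.80 ± 0.22 (edgeR adjusted p = 0.0426). Leaving out single libraries gave 1 to 5 calls, and without any of the controls rps7 no longer passed (edgeR adjusted p = 0.104 to 0.19).

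At 0.5 mGy/h and 48 hpf, in batch I10, 79 of 83 members were positive with a median of 0.31, and 37 were higher and 1 lower at an unadjusted p below 0.05 (8.38% and 11.7% of all genes). After adjustment only rps27l rose (0.59% and 1.5% of all genes rose and fell), and DESeq2 called 5 (1.83%). Groups were apart for 12 members above (7.25%) and 1 below (8.76%), and 0 were DEGs (0.00505% and 0.0454% of all genes higher and lower). Without the 3 controls that stood apart the median was 0.12, and without control replicate 5 the count was 15 higher and 1 lower. The lowest member was rps12, at -1.19 ± 0.30 (edgeR adjusted p = 0.0526). It had 222, 572, 600 and 872 CPM in controls and 233, 283 and 244 in exposed pools, so that the exposed pools matched the single control outside the split and the other 3 carried the difference.

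At 96 hpf the members at 5 and 50 mGy/h lay below the controls. At 5 mGy/h the median was -0.54 with 4 of 82 positive, none passed (0.27% and 0.849% of all genes rose and fell), 62 were lower at an unadjusted p below 0.05 (10.6% of all genes), and DESeq2 called 41 lower (3.35%) and 1 higher (1.82%). In 47 members every exposed pool lay below every control (12% of all genes) and in 1 above (11.2%), and 0 members were DEGs (0.0981% and 0.177% of all genes higher and lower). At 50 mGy/h the median was -0.76 with 6 of 82 positive, 15 fell and 2 rose (3.46% and 4.31% of all genes), and DESeq2 called 63 lower (7.34%). The 2 exposed pools lay below all controls in 72 members (24.4%) and above in 2 (25.5%), and by the DEG rule 0 rose and 0 fell (0.0589% and 0.103% of all genes). The count of 15 depended on the libraries used: it was 52 without control replicate 11 and 0 without any other single library, and 0 when the third 50 mGy/h pool was put back, with a median then of -0.54. It was also 0, with a median of -0.54, when a different 96 hpf pool was taken as the outlying one.

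Among the members that fell at 96 hpf and 50 mGy/h, rps12 had 374, 342 and 227 CPM in controls, 126 and 181 at 50 mGy/h, and 233, 140 and 199 at 5 mGy/h. It fell by 1.02 ± 0.26 at 50 mGy/h (edgeR adjusted p = 0.0377). rpl31, a protein near the peptide exit tunnel, had 2600, 2558 and 1691 CPM in controls and 982 and 1271 at 50 mGy/h, and its log2 fold change was -1.01 ± 0.27 (edgeR adjusted p = 0.0423). rpl23a, also at the tunnel exit, was at -1.01 ± 0.24 (edgeR adjusted p = 0.0305). rps28 had 869, 859 and 672 CPM in controls and 399 and 431 at 50 mGy/h, with groups apart and a log2 fold change of -0.94 ± 0.19 (edgeR adjusted p = 0.0205). Without 50 mGy/h replicate 10 the values of rps12, rpl31 and rpl23a were -0.78, -0.83 and -0.90, with edgeR adjusted p = 0.373, 0.383 and 0.315. Of the members with known roles above, rplp2 fell by 0.78 ± 0.21 (edgeR adjusted p = 0.0435), whereas rplp0 at -1.001 ± 0.32, rpsa at -0.91 ± 0.29 and rps19 at -0.74 ± 0.24 did not pass (edgeR adjusted p = 0.0691, 0.0723 and 0.0742). rps7, rps24 and rpl5 were near 0, at -0.15 ± 0.16, 0.09 ± 0.18 and -0.05 ± 0.17.

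At 0.5 mGy/h and 96 hpf, in batch I10, the members lay above their controls. The median was 0.69 with 79 of 82 positive, and 70 were higher at an unadjusted p below 0.05 (11.9% of all genes). The median was 0.40 without 0.5 mGy/h replicate 10 and up to 0.90 without another library. None passed after adjustment (0% and 0.00507% of all genes rose and fell), while DESeq2 called 53 higher (1.86%). Without 0.5 mGy/h replicate 9 edgeR called 79. The share of all genes called in that run is not given here, and its controls include the 2 controls that stood apart. Groups were apart in 40 members above (11.8%) and 0 below (11.9%), and 0 were DEGs, as of all genes (0%). The median was 0.76 without the 2 controls that stood apart, which left 1 control. rpl11 had 1466, 2968 and 2001 CPM in exposed pools and 1254, 1205 and 1585 in controls, at 0.67 ± 0.29, and overlapped between the groups. The exposed pools differed more among themselves (12.3%, 14.1% and 16.0% of gene counts) than the controls did (10.7%, 11.6% and 11.8%). rps15 and rps12, the pair of the split, were the highest and the lowest members at 1.41 ± 0.36 and -0.74 ± 0.47.

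The turn between stages was tested as the difference of the exposure effect within batch I17. At 5 mGy/h the effect at 96 hpf was below that at 24 hpf in 73 of 85 members and above it in none, with a median difference of -1.66, against 14% and 12.7% of all genes. At 50 mGy/h the numbers were 74 and 0 with a median of -1.75, against 12.2% and 10.2% of all genes. Both tests use the same controls. The largest at 5 mGy/h among abundant members was rps12 at -2.18 ± 0.44 (edgeR adjusted p = 0.00146), and rps19 stood at -1.79 ± 0.39 (edgeR adjusted p = 0.00255). rps7 differed by -0.31 ± 0.24 and rpl7l1 by 0.35 ± 0.32, neither past the threshold (edgeR adjusted p = 0.365 and 0.438). From 48 to 96 hpf, 9 members had a lower effect at 5 mGy/h (1.92% of all genes) and 42 at 50 mGy/h (4.69%), and none a higher one (2.04% and 4.66%). DESeq2 called 44 and 75 lower (3.57% and 7.2% of all genes). From 24 to 48 hpf no member's effect differed by edgeR or by DESeq2, in either direction (1.7% and 1.5% of all genes at 5 mGy/h, 2.77% and 1.7% at 50 mGy/h). At an unadjusted p below 0.05, 1 was higher and 2 lower at 5 mGy/h (9.86% and 11% of all genes), and 1 was higher and 3 lower at 50 mGy/h (12% and 9.23%).

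A difference between the 2 higher dose rates was not detected in any member by edgeR or DESeq2. With 50 set against 5 mGy/h, the median log2 difference was -0.12 at 24 hpf, -0.02 at 48 hpf and -0.19 at 96 hpf. No member passed at any stage. Of all genes, 0% were higher and 0% lower at 24 hpf, where 5 members were higher and 1 lower at an unadjusted p below 0.05 (5.08% and 1.16% of all genes). At 48 hpf the shares of all genes were 0.00505% and 0%, with 1 and 0 members by unadjusted p (1.73% of all genes higher). At 96 hpf they were 0.00491% and 0.0638%, with 1 member each way by unadjusted p (1.88% and 1.86%). rps27l had 0.56 ± 0.16 at 24 hpf (edgeR adjusted p = 0.781).

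Among the paralogues and like genes, rps27l, rpl22l1 and rpl7l1 departed from the common pattern in some comparisons. By contrast, rplp2l and rps26l rose at 24 hpf at both 5 and 50 mGy/h, as most structural members did. RPS27L is a known p53 target in human cells. Its zebrafish gene rps27l had 30.4, 33.9 and 29.1 CPM in the 24 hpf controls of batch I17, 45.2, 50.2 and 52.4 at 5 mGy/h and 86.0, 56.3 and 72.9 at 50 mGy/h. The 3 groups did not overlap, and it rose by 0.66 ± 0.17 (edgeR adjusted p = 0.0106) and 1.22 ± 0.17 (edgeR adjusted p = 0.000498). At 48 hpf it had 28.6, 23.9 and 24.0 CPM in controls, 34.7 and 32.9 at 5 mGy/h and 44.0, 49.6 and 55.5 at 50 mGy/h. The groups were again apart, with values of 0.41 ± 0.16 at 5 mGy/h (edgeR adjusted p = 0.228) and a rise of 0.96 ± 0.15 at 50 mGy/h (edgeR adjusted p = 0.00468). At 0.5 mGy/h and 48 hpf it had 31.95, 41.2 and 34.4 CPM in exposed pools and 27.9, 18.7, 21.0 and 26.1 in controls, a rise of 0.59 ± 0.13 (edgeR adjusted p = 0.0358) that read 0.35 without the 3 controls that stood apart (edgeR adjusted p = 0.298). At 96 hpf it had 31.7, 28.9 and 29.6 CPM in controls, 22.4, 25.3 and 27.4 at 5 mGy/h and 32.8 and 29.2 at 50 mGy/h, at -0.26 ± 0.11 and 0.05 ± 0.12, neither past the threshold.

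rpl22 and rpl22l1 encode paralogous large subunit proteins. At 24 hpf rpl22 had 773, 1213 and 991 CPM in controls, 1673, 1769 and 1812 at 5 mGy/h and 1902, 1542 and 1951 at 50 mGy/h, and rose by 0.82 ± 0.21 and 0.87 ± 0.21. rpl22l1 had 256, 252 and 252 CPM in controls, 281, 272 and 266 at 5 mGy/h and 589, 287 and 289 at 50 mGy/h, at 0.11 ± 0.24 and 0.64 ± 0.24 (edgeR adjusted p = 0.759 and 0.0699). Its 50 mGy/h replicate 1 stood far above the other pools. At 96 hpf and 50 mGy/h rpl22 had -0.44 ± 0.17 and rpl22l1 0.61 ± 0.23, neither past the threshold, and the difference between the paralogues was not tested.

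rpl7l1, whose yeast relative Rlp7 acts in the assembly of the large subunit, had 64.1, 50.5 and 54.0 CPM in the 24 hpf controls and 130, 67.6 and 74.4 at 50 mGy/h, with the same replicate 1 highest, and rose by 0.72 ± 0.21 (edgeR adjusted p = 0.0304). At 48 hpf it had 25.5, 32 and 31.9 CPM in controls and 43.3, 66.6 and 44.5 at 50 mGy/h, a rise of 0.78 ± 0.19 (edgeR adjusted p = 0.0271). At 96 hpf it had 10.5, 9.75 and 13.6 CPM in controls and 23.8 and 15.5 at 50 mGy/h, a rise of 0.81 ± 0.22 (edgeR adjusted p = 0.0478), at the stage where the structural members lay below their controls. The 96 hpf value was 0.47 without 50 mGy/h replicate 10 (edgeR adjusted p = 0.486). rps19bp1 had 2.91, 3.28 and 3.92 CPM in the 96 hpf controls and 8.92 and 6.09 at 50 mGy/h, a rise of 1.16 ± 0.25 (edgeR adjusted p = 0.0225). This value was 0.87 without the same replicate 10 (edgeR adjusted p = 0.304).

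**Figure D4:**
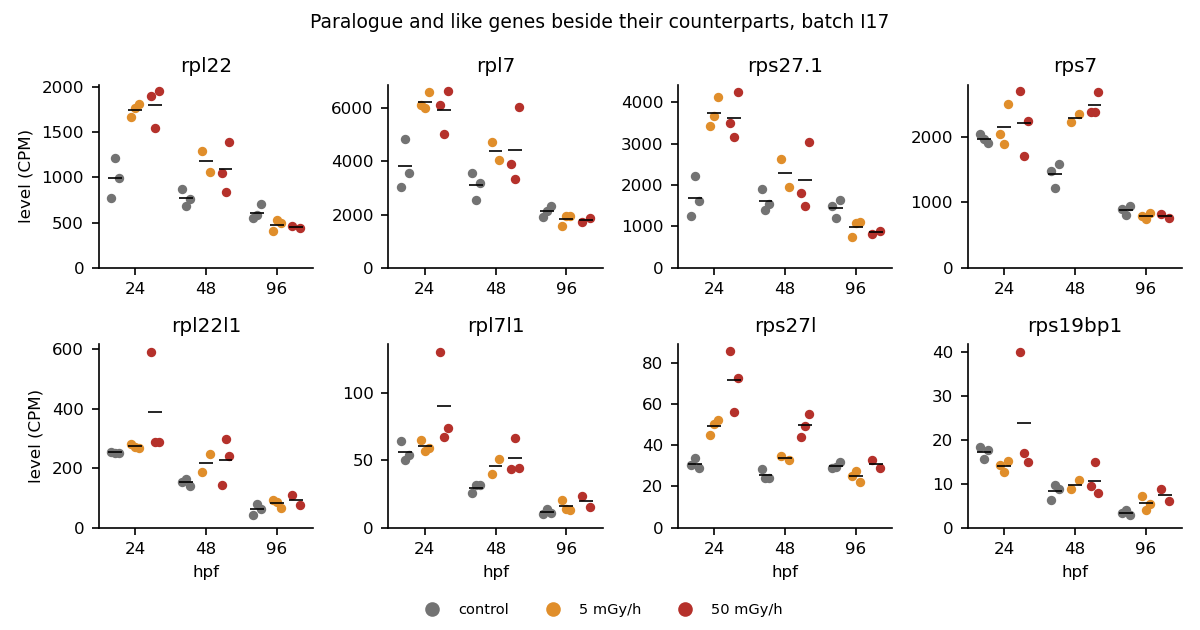
Levels in CPM of rpl22, rpl22l1, rpl7, rpl7l1, rps27.1, rps27l, rps7 and rps19bp1 in batch I17 by stage (hpf) and dose rate, with a point per pool and a line at the mean. rps27l at 24 hpf lies at 29.1 to 33.9 in controls and 56.3 to 86.0 at 50 mGy/h, and rpl7l1 falls from stage to stage in controls.

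In controls alone, the members' changes between stages were mostly small. In batch I17, 1 of 83 rose and 16 fell from 24 to 48 hpf, with a median of -0.33, while 49.3% of all genes changed either way. The count of 16 was 47 with total-count scaling, and 33 and 7 without the 24 hpf control replicates 1 and 3, and 27, 6 and 7 without the 48 hpf control replicates 5, 7 and 8. From 48 to 96 hpf 10 rose and 9 fell with a median of 0.16 (60.7% of all genes either way), and in batch I10 2 rose and 8 fell with a median of -0.01 (64%). In batch I17 the steepest falls were those of 2 like genes and rps19bp1. These were rpl7l1 by 0.87 ± 0.13, rpl22l1 by 0.69 ± 0.18 and rps19bp1 by 1.01 ± 0.15 from 24 to 48 hpf, and rpl7l1 by 1.36 ± 0.14, rpl22l1 by 1.27 ± 0.19 and rps19bp1 by 1.25 ± 0.16 from 48 to 96 hpf. In batch I10 rpl38 at -0.79 ± 0.21 and rpl29 at -0.75 ± 0.18 fell further than rpl22l1 at -0.64 ± 0.17. rps3 and rpl13 rose from 48 to 96 hpf in batch I17 by 0.63 ± 0.25 and 0.62 ± 0.23.

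Controls of different batches differed at the same stage. Batch I17 against batch I32 at 24 hpf gave 0 members higher and 7 lower (22.1% of all genes either way), and 2 were higher at an unadjusted p below 0.05 (17.9% of all genes), with rps12 at -2.32 ± 0.39, rpl21 at -0.94 ± 0.30 and rpl7l1 at -0.88 ± 0.12. Batch I17 against batch I10 gave 15 higher and 3 lower at 48 hpf (35.5% of all genes) and 45 higher and 3 lower at 96 hpf (36.5%), with medians of 0.36 and 0.59. Without the I10 controls that stood apart these became 1 and 1 at 48 hpf and 6 and 3 at 96 hpf. Among members higher in batch I17, rpl10 differed most, at 1.46 ± 0.29 and 1.95 ± 0.32, followed by rps15 at 1.17 ± 0.30 and 1.28 ± 0.33. The lowest were rps12 at -1.17 ± 0.38 at 48 hpf, and rpl7l1 at -1.44 ± 0.14 and rps19bp1 at -1.40 ± 0.16 at 96 hpf. These values include the I10 controls that stood apart, and rps12 and rps15 are the pair of that split. Dose rates of different batches are therefore not set against each other here.

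Other genes of translation and energy supply moved with the members at 24 hpf. At that stage 13.8% of all genes rose and 11.1% fell at 5 mGy/h, and 11.6% and 7.91% at 50 mGy/h. At 5 mGy/h, 43 of 79 genes of ribosome biogenesis rose and none fell with a median of 0.47, led by ddx21, a nucleolar helicase, at 1.85 ± 0.24, and utp18 at 1.51 ± 0.21. Of 75 mitochondrial ribosomal protein genes 34 rose and none fell (median 0.39), of 41 other translation genes 27 rose and 1 fell (median 0.72), and of 106 nuclear genes of oxidative phosphorylation 58 rose and none fell (median 0.55), led by cox6b1 at 1.47 ± 0.19. The ribosomal genes outside the naming rule followed: rack1, a small subunit protein, rose by 1.40 ± 0.29, and faua, which encodes a small subunit protein as a fusion, by 1.30 ± 0.27. At 50 mGy/h the same lists gave 44, 38, 23 and 54 genes that rose, and oxidative phosphorylation had 1 that fell, cox5b at -1.37 ± 0.44. The list of the p53 response was mixed, whereas in the list of proliferation more genes rose than fell. In the former 2 of 23 genes rose and 7 fell at 5 mGy/h (median -0.29) and 3 rose and 4 fell at 50 mGy/h (median -0.02). In the latter 13 of 30 rose and 3 fell at 5 mGy/h (median 0.43), then 7 and 1 at 50 mGy/h (median 0.35). Among p53 genes at 5 mGy/h were mdm4, an inhibitor of p53, at -1.44 ± 0.20 and sesn3, a stress-response gene, at 1.06 ± 0.23.

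Other genes of high expression moved the same way as the members by their medians. Level was not separated from gene function, since only the members were taken out. Among genes outside the members with a mean of at least 200 CPM, a set defined after the members' values were seen, 242 of 547 rose and 18 fell at 24 hpf and 5 mGy/h, with a median of 0.51 beside the members' 1.06. At 50 mGy/h 168 rose and 13 fell, with a median of 0.42 beside 0.96. At 96 hpf and 50 mGy/h 9 of 552 rose and 22 fell, with a median of -0.30 beside -0.76. At 96 hpf and 0.5 mGy/h the median was 0.42 beside 0.69. Of all genes, 13.8% rose and 11.1% fell at 24 hpf and 5 mGy/h, and 11.6% and 7.91% at 50 mGy/h. The shares at 96 hpf and 50 mGy/h were 4.31% and 3.46%, so the counts there lay near or below them. Scaled by total gene counts alone, the median of all genes moved to -0.69 at 24 hpf and 5 mGy/h and the members' median to 0.47, with 59 higher and 3 lower (rps19bp1, rps7 and rps18). The members' median less that of all genes was 1.13 with TMM and 1.16 with total counts, and all-gene calls were 2541 higher and 2045 lower with TMM and 617 and 9213 with total counts.

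Markers of tissues also differed in the same comparisons. At 24 hpf the epidermal genes krt5 and krt4 rose by 2.14 ± 0.22 and 1.38 ± 0.26 at 5 mGy/h, and the neuronal gene elavl3 fell by 0.94 ± 0.18, while gap43 (neurons), actc1b and mylpfa (muscle), hbae1.1 (red blood cells) and cryaa (lens) did not pass, at 0.25, 0.75, 0.24, 0.36 and -1.07. The same 3 of 8 markers passed in the 50 mGy/h pools. In larvae at 96 hpf and 50 mGy/h hbae1.1 fell by 1.21 ± 0.25, fabp10a (liver) by 1.16 ± 0.22 and gap43 by 0.52 ± 0.15, of 9 tested. The part of tissue makeup in the members' change was not tested.

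At 48 hpf and 50 mGy/h, 17 of 79 biogenesis genes and 15 of 30 proliferation genes rose and none fell, against 3 of 83 members. The medians differed less than these counts, at 0.50 for biogenesis, 0.69 for proliferation and 0.51 for the members. Of all genes, 3.58% rose and 4.91% fell. The p53 response had 5 of 24 that rose, with sesn3 at 1.44 ± 0.25 and the cell cycle inhibitor cdkn1a at 1.33 ± 0.31, and 1 that fell, foxo3b at -0.73 ± 0.14. At 96 hpf and 50 mGy/h, 26 of 107 oxidative phosphorylation genes fell and 1 rose (median -0.50). Of the mitochondrial ribosomal protein genes 8 of 75 fell and none rose, and of the biogenesis genes 5 of 79 fell and none rose. Among other translation genes 1 of 42 rose and 1 fell (median -0.38). The shares of all genes were 4.31% higher and 3.46% lower.

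**Figure D5:**
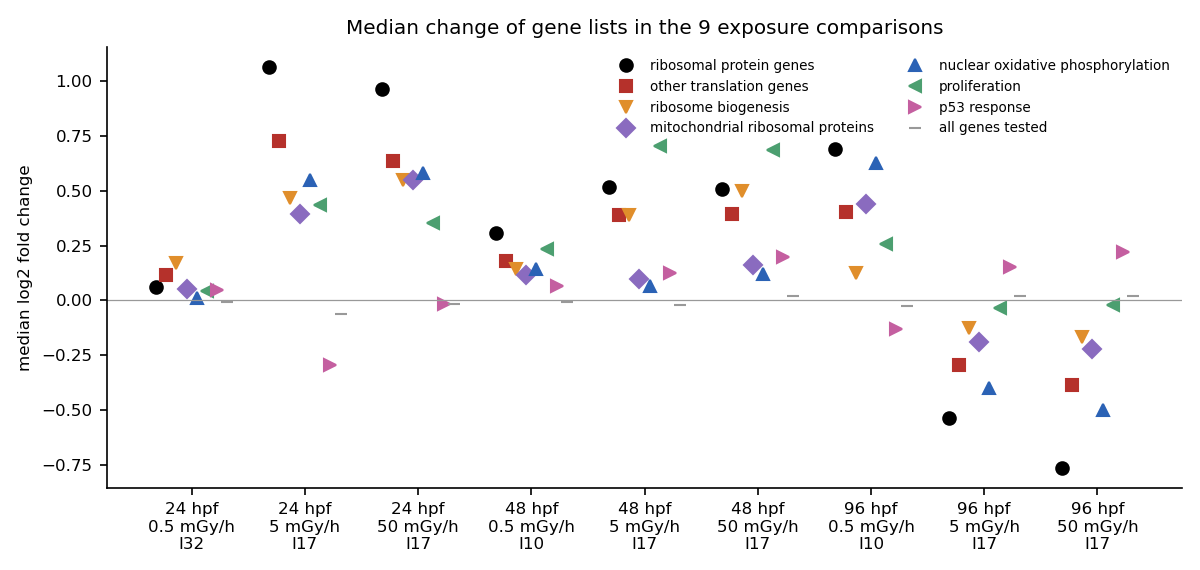
Median log2 fold change of the members and of each compared gene list in the 9 comparisons of exposed fish with controls. At 24 hpf and 5 mGy/h the members lie at 1.06 above the other lists (0.72 for other translation genes, 0.55 for oxidative phosphorylation), and at 96 hpf and 50 mGy/h they lie lowest at -0.76.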

How the data were processed

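Poly(A) RNA of pooled zebrafish was sequenced as stranded, paired libraries. Per the study's methods and processing notes, the authors trimmed the reads and aligned them to GRCz11 with STAR, which wrote gene counts per library, and these deposited counts were not normalized. Column 4 of each file, which holds counts on the strand of this kit, was used, and column 2, without strand, served as an alternative. Rows that name no gene (unmapped, multimapped, no-feature and ambiguous reads) stayed out of library sizes and tests, with multimapped reads at 14.9% to 25.5% of reads. Files of 58 samples were read, and 46 entered the tests.

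Counts were fitted in R 4.3.3 with edgeR 4.0.16 (filterByExpr, TMM, quasi-likelihood test, Benjamini-Hochberg adjustment over all genes), separately for each stage and batch, with 5 and 50 mGy/h in one fit with their controls. Stage differences of the effect used all libraries of batch I17, and control comparisons used all controls. The step was run on simulated counts in which genes drawn at random were changed up or down. That setting holds no set of abundant genes moving together one way, so it does not test that case. DESeq2 1.42.0, other scalings, no filter, no strand, a replicate block, all samples and leaving out single libraries were alternatives. Replicates of a group differed beyond sampling noise.

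Members named in the text were up to 3 per direction with the largest change past the threshold in each comparison, members with a like gene, rps19, rpl11, rpl5, rpl5b, rpsa and the stalk genes, matches that are no ribosomal protein, and for compared lists up to 2 genes per direction. Others, such as rps18 and rps24, were named after their values were seen. A planned choice by level per length was not made, since no gene lengths were used here, and levels are not compared between genes. The members and lists were chosen with earlier results of these data known. A few items are not reported here.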

Additional observations from a re-analysis of the deposited data

Results flagged for a closer look

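The effect of exposure differed between stages in tests of the difference itself, in 4 comparisons of batch I17. The effect at 96 hpf was below that at 24 hpf in 73 members at 5 mGy/h (14% of all genes) and 74 members at 50 mGy/h (12.2%). It was below that at 48 hpf in 9 (1.92%) and 42 members (4.69%).

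The 5 libraries of batch I10 at 24 hpf enter no comparison above. The members took 16.7%, 20.87% and 21.36% of gene counts in the exposed replicates 1, 2 and 4 at 0.5 mGy/h, and 16.95% and 17.59% in the 2 controls, so replicates 2 and 4 lay above both controls and replicate 1 below both.

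rps19bp1 had 16.75 CPM in control replicate 8 of batch I10 at 48 hpf, far from 13.1 to 13.4 in the other 3 controls, by Dixon's criterion at the 95% level. It was 1 of 44 tests of this kind, and chance marks about 1 in 20. The tests covered gene levels, the members' share and read measures in the few groups large enough for the criterion, so they share libraries.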

How the results depend on the processing

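The medians of the members kept their sign under every alternative run in the 8 comparisons of exposed fish with controls other than 24 hpf at 0.5 mGy/h. Counts of calls moved with the setting at every stage, and the causes were not tested. Groups of 2 to 5 pools limit the precision, and the part of depth was not tested.

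With total gene counts only, 24 hpf at 5 mGy/h had 3 members lower and a median of 0.47, 50 mGy/h had 0.47, 48 hpf at 0.5 mGy/h had 0 higher, and at 96 hpf the medians were 0.28, -0.24 and -0.40 at 0.5, 5 and 50 mGy/h with 0 higher at 50 mGy/h. In controls this scaling gave 47 lower from 24 to 48 hpf, 23 lower with a median of -0.10 from 48 to 96 hpf in batch I17, 1 higher and 28 lower in batch I10, 3 higher for I17 against I32, 8 higher at 48 hpf and 10 lower with a median of 0.29 at 96 hpf for I17 against I10.

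With DESeq2, members higher numbered 5, 4 and 10 at 48 hpf for 0.5, 5 and 50 mGy/h. At 96 hpf they numbered 53 at 0.5 mGy/h and 1 at 5 mGy/h, where 41 were lower, with 63 lower at 50 mGy/h. The stage differences from 48 to 96 hpf were then 44 and 75 lower. Without a filter, 48 hpf at 0.5 mGy/h gave 5 higher and 1 lower, 96 hpf 1 higher and 7 lower at 5 mGy/h and 54 lower at 50 mGy/h, and I17 against I32 2 higher.

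Correlations of same-numbered pools ran from -0.383 to 0.44, and those of other pools from -0.49 to 0.491. With so few pools these ranges cannot decide whether replicate numbers pair the samples, and the main tests used no pairing. With the replicate block, 48 hpf gave 9 higher and 1 lower at 0.5 mGy/h and 0 higher at 50 mGy/h, and 96 hpf at 50 mGy/h 1 higher and 0 lower.

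With all samples, the median at 48 hpf and 5 mGy/h was 0.19, 50 mGy/h had 1 higher, and 96 hpf at 50 mGy/h had 0 higher, 0 lower and a median of -0.54. Controls then gave 8 lower from 24 to 48 hpf, 6 higher (I17) and 7 higher with a median of 0.24 (I10) from 48 to 96 hpf, 4 lower for I17 against I32, and 9 higher at 48 hpf and 9 higher, 5 lower and a median of 0.34 at 96 hpf for I17 against I10. The name of the outlying 96 hpf pool in the study's clustering figure is ambiguous. Taking the other 96 hpf pool as the outlying one gave 0 higher, 0 lower and a median of -0.54. Each dose alone gave 34 higher at 24 hpf and 50 mGy/h, 10 higher at 48 hpf and 5 mGy/h and 57 lower at 96 hpf and 50 mGy/h. The DEG rule gave 13 higher at 24 hpf and 50 mGy/h, 0 and 1 at 48 hpf (0.5 and 50 mGy/h) and 0 and 0 at 96 hpf and 50 mGy/h. TMM without the members gave 9 higher for I17 against I10 at 48 hpf, counts without strand 4 lower for I17 against I32, and batch I10 alone a median of 0.34 at 24 hpf and 0.5 mGy/h.

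Without the I10 controls above 4% unmapped, an alternative chosen after seeing the data, controls from 48 to 96 hpf in I10 gave 0 higher, and I17 against I10 gave 1 higher and 1 lower at 48 hpf and 6 higher at 96 hpf. rps12 in that comparison at 48 hpf changed sign, to 0.16 (edgeR adjusted p = 0.829), and to 0.47 without strand (edgeR adjusted p = 0.115).

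Leaving out 1 library at a time gave these ranges of members higher: 6 to 76 at 24 hpf and 50 mGy/h, 0 to 15 at 48 hpf and 0.5 mGy/h (0 to 1 lower), 1 to 5 at 48 hpf and 50 mGy/h, 0 to 79 at 96 hpf and 0.5 mGy/h, and 0 to 3 at 96 hpf and 50 mGy/h (0 to 52 lower). At 96 hpf and 5 mGy/h 0 to 5 were lower. In controls, I17 against I32 gave 0 to 2 higher and 4 to 36 lower, 24 to 48 hpf 0 to 1 higher and 6 to 33 lower, 48 to 96 hpf 1 to 19 higher in I17 and 6 to 15 lower in I10, and I17 against I10 2 to 28 higher at 48 hpf and 13 to 50 at 96 hpf.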
